A study of Mus with 8 samples.

Results

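Fatty acid desaturases place double bonds in the acyl chains that later enter triglycerides, phospholipids and cholesteryl esters. The stearoyl-CoA desaturases, encoded by the Scd genes, make monounsaturated chains such as oleate from saturated ones, and Scd1 is the form best known in fat and liver of the mouse. The Fads1 and Fads2 enzymes work with elongases to turn the essential fatty acids of the diet into long polyunsaturated chains, and Fads3 acts on sphingoid bases. All of them sit in the membrane of the endoplasmic reticulum, and SREBP and LXR transcription factors are known activators of several of their genes.

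The rule named 7 genes, Scd1, Scd2, Scd3, Scd4, Fads1, Fads2 and Fads3, and took for each the probe set that is annotated with that gene alone and has the highest mean over all arrays. It found such a probe set for 6 of the 7, out of 30675 named genes in all. Scd2 had none, because its probe set is annotated together with the microRNA gene Mir5114. All members lie on chromosome 19, in a Scd cluster with the gene order Scd3, Scd2, Scd4, Scd1 and a Fads cluster with the order Fads3, Fads2, Fads1. The Scd genes are close copies of each other, and how far their probe sets share signal was not tested.

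Transcripts were measured in interscapular brown fat of C57BL/6 mice, with 1 array per mouse, in 4 mice labelled HILPDA KO and 4 labelled wild type (WT). Hilpda encodes a small lipid droplet protein. The labels name no allele, Cre driver, age, diet or housing temperature for either group. All 10 brown adipocyte and all 10 general adipocyte markers lay above background on every array, where background is the 95th percentile of olfactory receptor genes on that array.

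The arrays fall into 2 sets by their values, and were treated as normalized apart, which no label states. They are replicates 1 and 2 of both groups (set 1) and replicates 3 and 4 of both groups (set 2), with medians of named genes of 3.92 to 3.99 and of 4.92 to 4.97 on the log2 scale. Levels are therefore read within a set, with 2 KO and 2 WT arrays in each, and the number of arrays limits the precision. Hilpda itself differed by 0.09 (SE 0.10) in set 1, and by -0.40 (SE 0.10, limma adjusted p = 0.144) in set 2, so the KO label is not borne out by its level in set 1. The position of its probe set with respect to the deletion is not stated in the labels. The mice are labelled female, yet the Y-linked Uty read 9.31 to 10.93 and Xist lay below background on all 8 arrays. Albumin (Alb), a liver transcript, read 19.23 and 15.81 in KO and 14.51 and 10.03 in WT of set 1, against 4.79 to 5.23 on the arrays of set 2. Averaged over 10 skeletal muscle markers, KO replicates 1 to 4 stood at 6.62, 9.97, 5.98 and 11.57 and WT replicates 1 to 4 at 8.91, 8.34, 11.73 and 9.98.

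No desaturase passed the test of KO against WT. The question was whether loss of Hilpda goes with altered desaturase transcripts, and differences are KO minus WT on the log2 scale from limma with the set as a block, adjusted over all 30675 genes. Of the 6 genes 0 were called at an adjusted p under 0.05, and of all genes 0 were called (0%). At an unadjusted p under 0.05 the count over all genes was 1482 (4.83%), and none of the 6 desaturases was among them. Each set was also tested alone, with the spread shared by all arrays. Set 1 called 0 genes (0%; 2376 at an unadjusted p under 0.05, or 7.75%), and set 2 called 1 gene (0.00326%; 4620 at an unadjusted p under 0.05, or 15.1%). The called gene was Dbp, a clock-controlled transcription factor, named after its value was seen.

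Scd1 gave one of the brightest signals of the tissue. As in any bulk sample, fewer cells of a type and less RNA per cell cannot be told apart in the levels that follow. Its highest-mean probe set read 19.88 and 19.88 in KO and 19.87 and 19.90 in WT of set 1, and 19.77 and 19.68 in KO and 19.73 and 19.74 in WT of set 2. On all 8 arrays this lay within 0.1 of the highest value the array reached, and in set 2 it was that value itself. Between 50 and 178 probe sets shared the top value of an array. A probe set at the top of the scale in both groups has only a lower bound, so no fold was read from it.

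A second probe set annotated with Scd1 stayed below the top. It read 19.12 and 18.66 in KO, and 19.37 and 18.95 in WT of set 1. On the set 2 arrays it read 18.28 and 18.24 in KO, and 18.49 and 18.45 in WT. In set 2 both KO arrays lay below both WT arrays, and in set 1 the groups overlapped. The difference was -0.27 (SE 0.19) in set 1 and -0.21 (SE 0.19) in set 2. Over both sets it was -0.24 (SE 0.13, limma adjusted p = 0.983), with a 95% interval of -0.54 to 0.06, or 0.689 to 1.04-fold. The probe set lay above 99.4 to 99.6% of named genes, and whether signal so near the top narrows its differences was not tested. The KO array was lower than the WT array of the same number in each of the 4 pairs, by differences of -0.25, -0.29, -0.21 and -0.21. Blocked by replicate number, the SE was 0.07 and the unadjusted p = 0.0173 (limma, n = 8), and the adjusted p = 0.999. A pairing by number is not given by the labels. This probe set was taken up after the values were seen.

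Scd3, a form known from skin and the Harderian gland of the mouse, was above background on all 8 arrays. It read 5.42 and 5.32 in KO against 5.66 and 5.79 in WT of set 1. The set 2 values were 7.10 and 7.02 in KO against 7.07 and 7.04 in WT. The KO arrays of set 1 lay below both WT arrays, and in set 2 the groups overlapped. Its difference was -0.35 in set 1 (SE 0.10, unadjusted p = 0.0101, limma adjusted p = 0.436) and 0.01 in set 2 (SE 0.10). The difference between the sets was 0.36 (SE 0.14), with a limma adjusted p = 0.3. Over both sets Scd3 differed by -0.17 (SE 0.09; 95% interval -0.39 to 0.05; limma adjusted p = 0.983).

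Scd4, described in the mouse as the heart form, was not above background on any array. It read 3.62 and 3.48 in KO and 3.55 and 3.73 in WT of set 1, and 4.40 and 4.39 in KO and 4.36 and 4.45 in WT of set 2. Its difference of -0.05 (SE 0.07; limma adjusted p = 0.999) is therefore one between values near the floor. The 6 heart markers were mixed: 1 was above background on every array, while Nppa, Nppb and Myl7 were not above it on any.

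The probe set annotated with both Scd2 and Mir5114 cannot be laid to Scd2 alone and was not tested. It read 8.48 and 8.55 in KO and 8.56 and 8.70 in WT of set 1. Set 2 gave 10.90 and 10.81 in KO and 11.02 and 11.35 in WT. Both KO arrays were below both WT arrays in each set, with differences of -0.12 and -0.33. Among named genes 751 (2.45%) lay that way in both sets. Scd2 is the form best known from brain and developing tissue of the mouse.

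**Figure D1:**
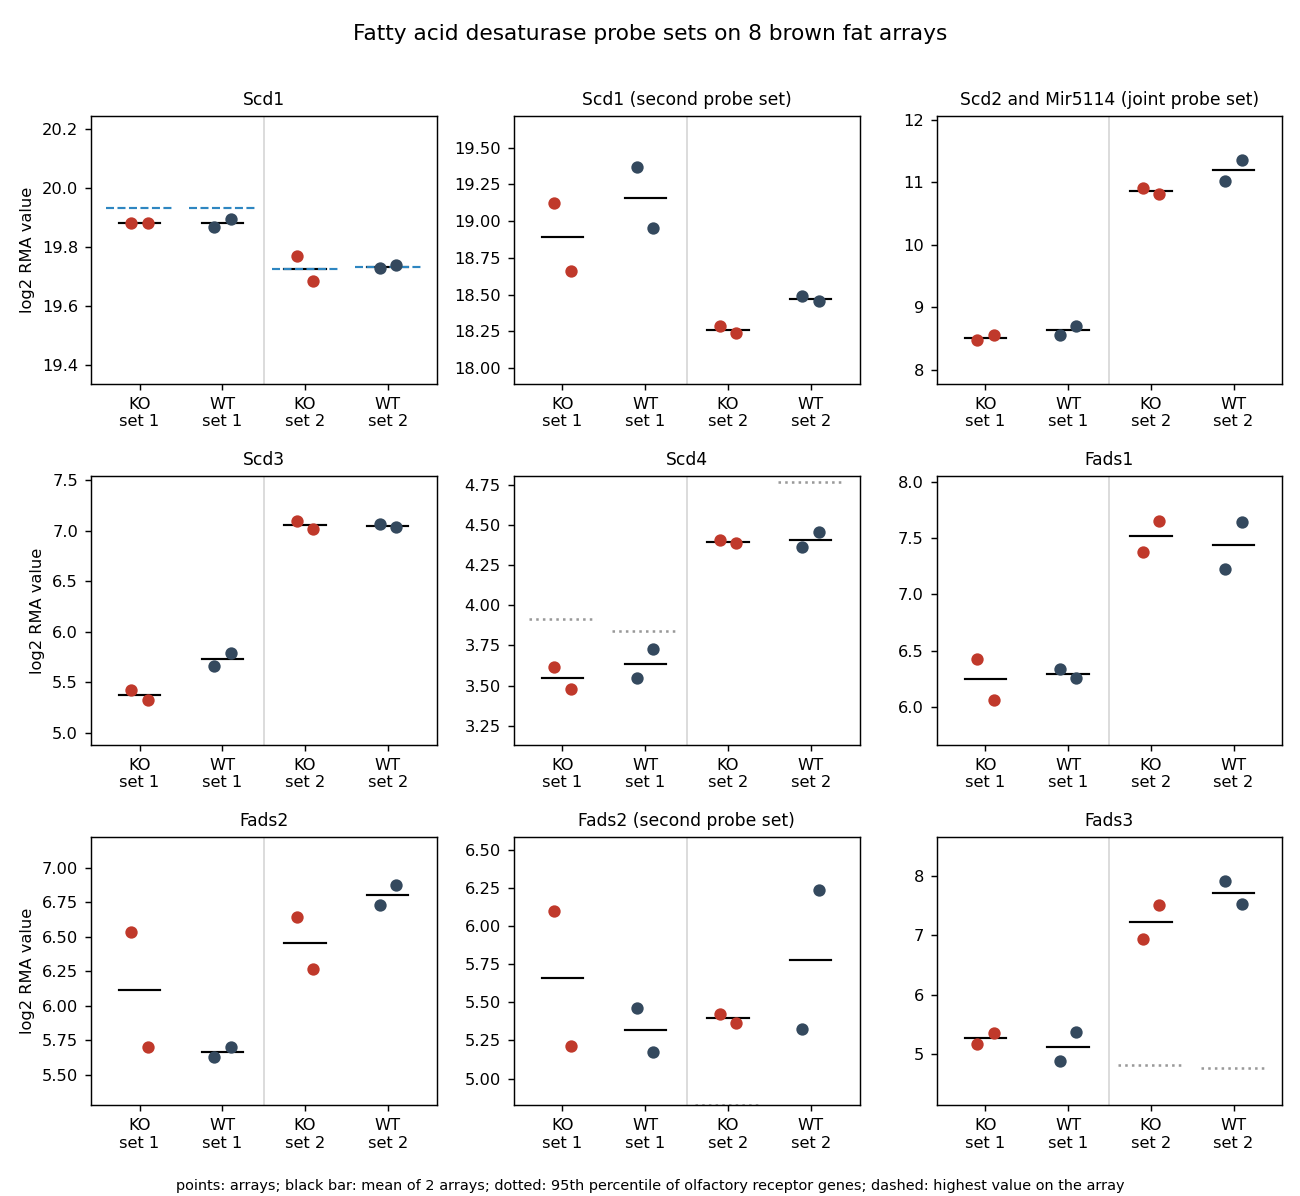
Log2 RMA values (vertical axes, each panel with its own range) of the desaturase probe sets on the KO and WT arrays of set 1 and set 2. Points are arrays, black bars are means of 2 arrays, the dotted line is the background level and the dashed line the highest value on the arrays. Scd1 lies at or next to the dashed line in all groups, and Scd4 lies under the dotted line, which in set 2 KO runs above the panel.

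Fads1, which makes arachidonate and eicosapentaenoate from their precursors, had the smallest difference of the Fads genes over both sets. It read 6.43 and 6.06 in KO and 6.33 and 6.26 in WT of set 1. The values of set 2 were 7.38 and 7.65 in KO and 7.23 and 7.64 in WT. The groups overlapped in both sets. Its difference was 0.02 (SE 0.13; limma adjusted p = 0.999), and the 95% interval of -0.29 to 0.32 covers changes of 0.82 to 1.25-fold.

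Fads2, which catalyses the entry step of the polyunsaturated pathway, stood apart on single arrays. Its highest-mean probe set read 6.53 and 5.70 in KO and 5.63 and 5.70 in WT of set 1. In set 2 it read 6.65 and 6.27 in KO and 6.73 and 6.88 in WT. KO replicate 1 alone was high in set 1, while in set 2 both KO arrays lay below both WT arrays. The differences were 0.45 (SE 0.27; limma adjusted p = 0.81) in set 1 and -0.35 (SE 0.27; limma adjusted p = 0.617) in set 2. The set 1 difference was 0.03 without KO replicate 1 and 0.87 without KO replicate 2. Over both sets it was 0.05 (SE 0.23; 95% interval -0.49 to 0.59; limma adjusted p = 0.999), and without KO replicate 1 it was -0.20.

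The second Fads2 probe set had the same signs within the sets. It read 6.10 and 5.22 in KO and 5.47 and 5.17 in WT of set 1, and 5.42 and 5.37 in KO and 5.33 and 6.24 in WT of set 2. KO replicate 1 was again the highest of set 1, but in set 2 WT replicate 4 alone was high and the groups overlapped. The difference was 0.34 in set 1, -0.39 in set 2 and -0.02 (SE 0.28; limma adjusted p = 0.999) over both. KO replicate 1 was also the array with the most Alb, 19.23. Its mean over 11 liver markers was 13.08, against 10.07 in KO replicate 2 and 9.79 and 7.81 in WT of set 1. Elovl2, the elongase that follows Fads2 and Fads1 in the pathway and is abundant in liver, read 6.03 and 4.71 in KO and 4.77 and 4.44 in WT of set 1, and was not above background in set 2. The part of liver RNA in the Fads2 value of KO replicate 1 was not tested.

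Fads3 had its larger difference in set 2. It read 5.18 and 5.35 in KO and 4.90 and 5.37 in WT of set 1. In set 2 it read 6.93 and 7.50 in KO and 7.90 and 7.52 in WT. Both KO arrays of set 2 lay below both WT arrays, though KO replicate 4 and WT replicate 4 were only 0.02 apart. The difference was 0.14 (SE 0.25) in set 1 and -0.49 (SE 0.25; limma adjusted p = 0.409) in set 2, and over both sets it was -0.18 (SE 0.20; 95% interval -0.65 to 0.29). Without KO replicate 3 it was -0.0024 over both sets and -0.21 in set 2, and without WT replicate 3 it was -0.04 and -0.30. In set 2 the order of the arrays was that of the muscle markers at its ends, with KO replicate 3 lowest (5.98) and WT replicate 3 highest (11.73). Between them, KO replicate 4 had more muscle signal (11.57) than WT replicate 4 (9.98) at nearly the same Fads3 value. In set 1 the low end differed. The muscle markers were lowest in KO replicate 1 (6.62) and highest in KO replicate 2 (9.97), and Fads3 was lowest in WT replicate 1. At the high end Fads3 was nearly level in WT replicate 2 (5.37) and KO replicate 2 (5.35). Of the 10 muscle markers 8 were above background on every array. Their part in the Fads3 values was not tested.

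**Figure D2:**
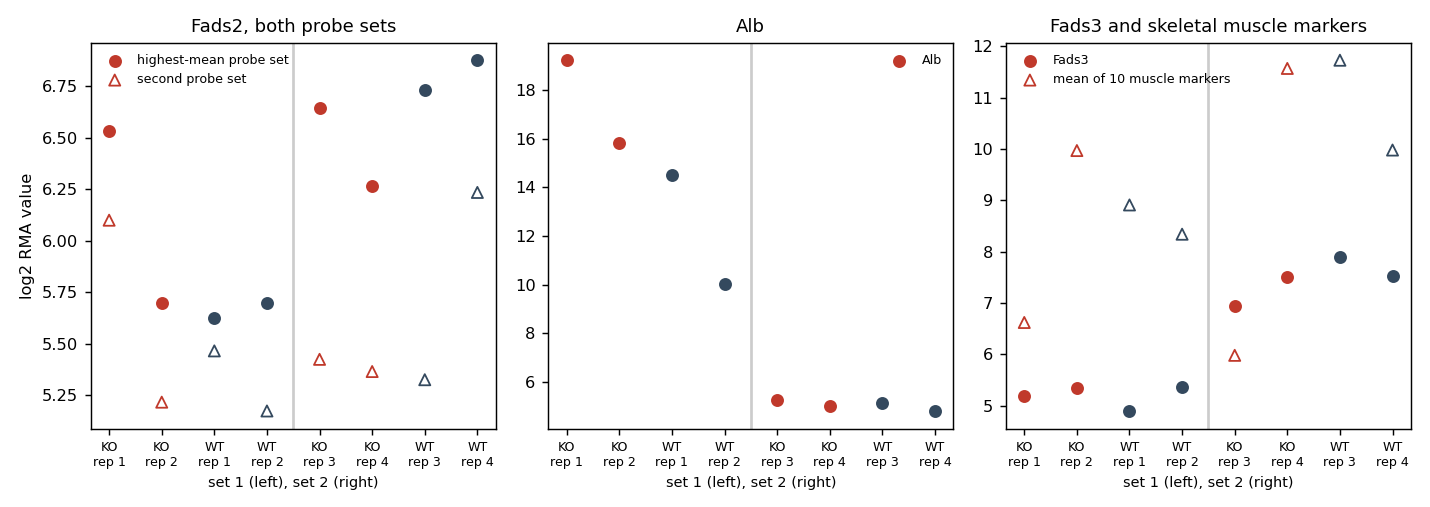
Log2 RMA values by array for both Fads2 probe sets, for Alb, and for Fads3 beside the mean of 10 skeletal muscle markers, with KO in red and WT in dark blue and set 1 left of the grey line. KO replicate 1 is the highest of set 1 for both Fads2 probe sets and for Alb, and KO replicate 3 is the lowest of set 2 for Fads3 and for the muscle markers.

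Counts of desaturases whose groups did not overlap were read against all genes. In set 1 both KO arrays lay below both WT arrays for 1 of the 6 desaturases (Scd3) and for 19.4% of all genes. In set 2 this held for 2 of the 6 (Fads2 and Fads3) and for 19.1% of all genes. None of the 6 had both KO arrays above both WT arrays in set 1 (18.9% of all genes) or in set 2 (23.9%). Nor was any of the 6 parted in the same direction in both sets (2.45% of all genes with KO below and 2.85% with KO above). The joint probe set of Scd2 and Mir5114, which is outside the 6, had KO below WT in both sets. The test of whether KO minus WT differed between the sets called 153 of all genes (0.499%) and 0 desaturases. The difference in set 2 minus that in set 1 was -0.80 for Fads2 (SE 0.38; limma adjusted p = 0.395) and -0.63 for Fads3 (SE 0.35; limma adjusted p = 0.48). With 1 array left out these ran from -1.22 (without KO replicate 2) to -0.38 (without KO replicate 1) for Fads2, and from -0.91 (without KO replicate 4) to -0.34 (without KO replicate 3) for Fads3.

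**Figure D3:**
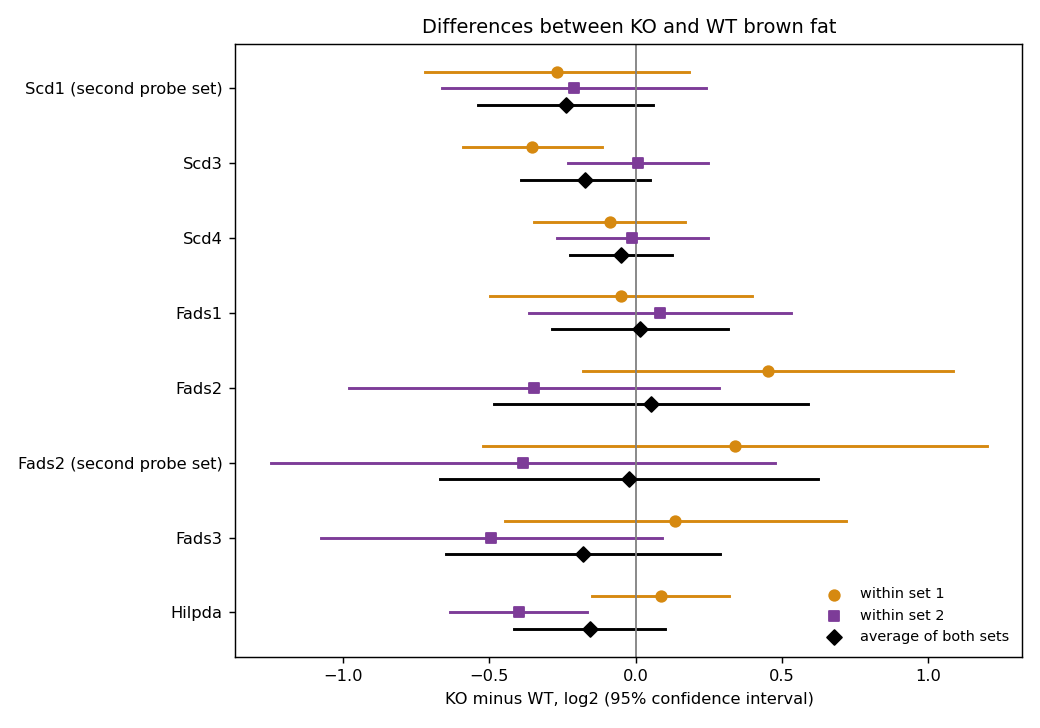
KO minus WT on the log2 scale (horizontal axis) for each desaturase that could be compared and for Hilpda, within set 1, within set 2 and over both sets, with 95% confidence intervals from limma. All intervals over both sets include 0, and among the desaturases the interval within 1 set leaves out 0 only for Scd3 in set 1, which did not pass adjustment.

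The Fads genes were only loosely correlated across the arrays. After the mean of each set was taken out, Pearson's r over the 8 arrays was 0.199 between Fads1 and Fads2, -0.273 between Fads1 and Fads3 and 0.065 between Fads2 and Fads3, given as descriptions of arrays that share a normalization. By the same measure, the genes most like Fads2 among 11387 searched were Chordc1 (0.965), Tasor (0.96) and Limd2 (0.955). For Fads1 they were Ccdc15 (0.98), Ugdh (0.977) and Lancl3 (0.961), for Fads3 Nlrx1 (0.99), Tcf7l1 (0.981) and Pdcd7 (0.98), and for Scd3 Dmrt2 (0.983), Mcm9 (0.968) and Camkk2 (0.968). With a search of this size over 8 arrays these values are a description only. Scd1 was left out because its values lie at the top of the scale.

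Desaturases draw electrons from cytochrome b5 and its reductases. Of 9 measured genes of this kind 7 were lower and 2 higher over both sets (median -0.05, against 0.007 for all genes, of which 47.4% were lower), and 0 were called. Cyb5a, the main microsomal cytochrome b5, read 10.15 and 10.45 in KO against 10.70 and 11.47 in WT of set 1. Set 2 gave 12.66 and 12.79 in KO against 11.20 and 11.81 in WT. KO lay below WT in set 1 (-0.78) and above it in set 2 (1.23, SE 0.29, limma adjusted p = 0.138). Cyb5b, the form of the outer mitochondrial membrane, differed by 0.11 in set 1 and by -1.35 in set 2 (limma adjusted p = 0.0912). Over both sets Cyb5b was at -0.62 (SE 0.31). Cyb5r3, a reductase of cytochrome b5, was at -0.32 (SE 0.19), and the reductases Cyb5r2 and Cyb5rl, neither above background on any array, at -0.24 and -0.05.

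Among the transcriptional regulators, 16 of 18 measured genes were lower in KO over both sets, with a median of -0.15 and 0 called. In set 1 the count was 11 of 18 lower (median -0.06) and in set 2 it was 15 of 18 (median -0.26), against 48.9% and 46.4% of all genes. All 18 were above background on every array. Genes kept by a filter on low values had a median of -0.04 in set 1 and 0.03 in set 2. Srebf2, a sterol-responsive activator, differed by -0.20 (SE 0.09) and Rxra, a partner of LXR and PPAR receptors, by -0.15 (SE 0.09). Ppara, a fatty acid receptor, differed by -0.81 (SE 0.38), with -0.38 in set 1 and -1.24 in set 2. It read 13.76 and 11.94 in KO and 14.26 and 13.92 in WT of set 2, where KO replicate 4 alone was far lower. Mlx, the partner of the carbohydrate-response factor, differed by -0.29 (SE 0.14), with -0.55 in set 1 and -0.03 in set 2. In set 2 alone Nr1h3, which encodes LXR-alpha, was at -0.55 and Thra, a thyroid hormone receptor, at -0.64. Both had the other sign in set 1, at 0.08 for Nr1h3 and 0.32 for Thra. Srebf1 had no probe set of its own here.

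Insig1 retains SREBP in the endoplasmic reticulum and is itself a sterol-responsive gene. It read 13.21 and 14.08 in KO against 11.28 and 10.43 in WT of set 1, and 12.21 and 11.31 in KO against 14.71 and 14.83 in WT of set 2. The groups were parted in both sets in opposite directions, by 2.79 (SE 0.42; limma adjusted p = 0.304) and -3.01 (SE 0.42; limma adjusted p = 0.0797). The difference between the sets was -5.80 (SE 0.59, limma adjusted p = 0.0366). It was called under 5 of 14 alternatives and lost its call when any 1 array was left out. Among those 5, the averaged and the second probe sets left the Insig1 difference unchanged. With all arrays kept, the limma adjusted p ran from 0.0298 with the filter to 0.0544 with the variance trend. Nfyc, a subunit of the CCAAT-binding factor NF-Y, had the same signs at 0.747 and -1.001. The desaturases that were measured below the top of the scale moved by at most 0.49 in size within either set.

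The elongases and the other enzymes of the elongation cycle were lower in 7 of 12 genes over both sets (median -0.02), with 0 called, but in 4 of 12 in set 1 and 7 of 12 in set 2. Among all genes the lower shares were 47.4% over both sets, 48.9% in set 1 and 46.4% in set 2. Elovl6, which lengthens palmitate before it reaches Scd1, differed by 0.24 (SE 0.13), Elovl1 by -0.10 and Elovl2 by 0.42 (SE 0.28). Elovl2 was above background only in set 1, where KO replicate 1 alone was high (6.03). Elovl3, a cold-responsive elongase of brown fat, was at 17.72 and 17.82 in KO and 17.75 and 17.67 in WT of set 1, and at 17.39 and 15.63 in KO and 17.55 and 17.56 in WT of set 2, where KO replicate 4 alone was low. Elovl5, which lengthens the products of Fads2, differed by -0.50 in set 1 and by 1.02 in set 2 (SE 0.24; limma adjusted p = 0.137). Hacd3, a dehydratase of the cycle, was at -0.76 and 0.54 in set 1 and set 2.

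Genes that supply saturated chains were split, with 5 of 9 lower and 0 called (median -0.04). Acss2, which makes acetyl-CoA from acetate, had the smallest p of this list. It read 7.48 and 7.46 in KO against 7.90 and 7.79 in WT of set 1, and 8.81 and 9.12 in KO against 9.27 and 9.85 in WT of set 2. KO lay below WT in both sets, and the difference was -0.48 (SE 0.14; limma adjusted p = 0.983). Thrsp, a lipogenic regulator, differed by -0.88 in set 1 and 0.47 in set 2, and Acaca, acetyl-CoA carboxylase, by 0.30 (SE 0.32) over both. Mid1ip1, an activator of that carboxylase, was at -0.06.

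Genes that use the acyl chains in phospholipids and triglycerides were lower in 9 of 11 over both sets (median -0.15, 0 called), against 47.4% of all genes. Only 8 of the 11 were above background on every array. Acsl5, an acyl-CoA synthetase, differed by -0.43 (SE 0.20) and Mboat7, which places arachidonate in phosphatidylinositol, by -0.20 (SE 0.09). Lpcat3, which places polyunsaturated chains in phospholipids, was at 0.23 in set 1 and -0.61 in set 2 (limma adjusted p = 0.119). Dgat2, a triglyceride-forming enzyme, differed by -0.40 (SE 0.21). Its groups overlapped in set 1, and in set 2 it read 18.78 and 17.85 in KO against 18.89 and 18.82 in WT. KO replicate 4 alone was far lower there. Mboat1, not above background on any array, differed by 0.15.

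Genes listed for the shortening of polyunsaturated chains, not all of them peroxisomal or enzymes, were lower in 5 of 9 over both sets. The median was -0.03, with 0 called. In set 1 the count was 2 of 9 lower (median 0.21) and in set 2 it was 7 of 9 (median -0.28), against 48.9% and 46.4% of all genes. Abcd2, a peroxisomal transporter of very long acyl-CoA, read 12.68 and 12.29 in KO against 11.49 and 10.41 in WT of set 1. In set 2 it read 11.78 and 11.97 in KO against 14.22 and 13.52 in WT. It differed by 1.53 in set 1 and -2.0 in set 2, and the difference between the sets was -3.53 (SE 0.53; limma adjusted p = 0.0536). The 4 genes with the smallest p over both sets, Decr1, Scp2, Acaa1b and Eci2, were at -0.13, 0.12, -0.08 and -0.03.

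Other desaturases and related hydroxylases were lower in 5 of 9 genes (median -0.002; 0 called). Msmo1, a sterol oxidase of the same protein superfamily, read 5.88 and 6.13 in KO and 5.91 and 5.97 in WT of set 1, and 6.31 and 6.00 in KO and 7.10 and 8.10 in WT of set 2. Its difference was 0.07 in set 1 and -1.44 in set 2 (SE 0.30; limma adjusted p = 0.119). Sc5d, the sterol desaturase that follows it in cholesterol synthesis, differed by -0.18 in set 1 and -0.77 in set 2, and Degs1, the dihydroceramide desaturase, by -0.14 (SE 0.08) over both. Degs2, a related enzyme that was not above background on any array, was at 0.08.

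**Figure D4:**
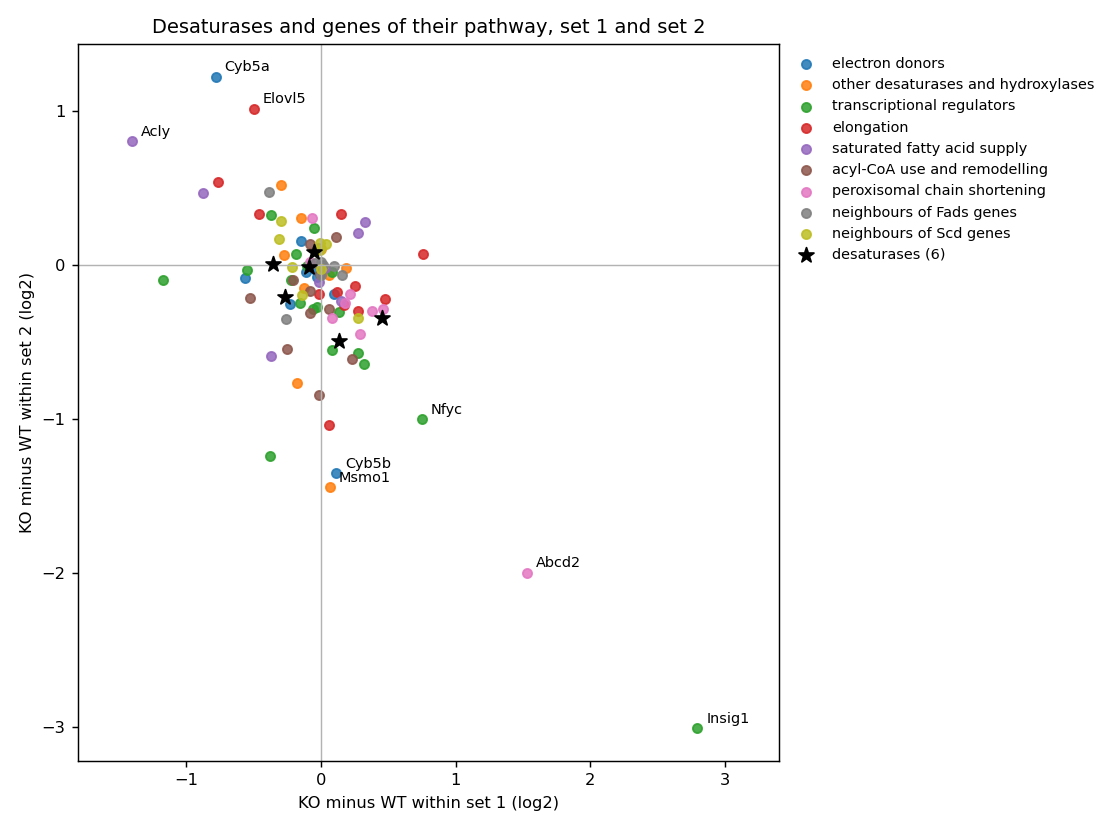
KO minus WT on the log2 scale within set 1 (horizontal axis) against set 2 (vertical axis) for the measured genes of the pathway and neighbour lists (coloured points) and for 6 desaturase genes (black stars; for Scd1 the second probe set was used, since the other lies at the top of the scale). The stars stay between -0.49 and 0.45 on both axes, whereas Insig1 lies at 2.79 and -3.01.

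Genes next to the members on chromosome 19 had small median differences over both sets. Not all of them were above background on every array, only 3 of 8 on the Fads side and 6 of 9 on the Scd side. Of 8 measured neighbours of the Fads cluster 3 were lower (median 0.01), and of 9 measured neighbours of the Scd cluster 6 were lower (median -0.01), with 0 called in either. Tmem258, a subunit of the oligosaccharyltransferase that lies near Fads1, differed by -0.39 in set 1 and 0.48 in set 2. Over both sets Fen1, Rab3il1, Best1 and Dagla were at -0.03, 0.045, 0.045 and -0.31. Sec31b, Hif1an, Pkd2l1 and Cwf19l1 of the Scd side were at 0.07, -0.11, -0.17 and 0.09. Of these, Fen1, Best1 and Pkd2l1 were not above background on any array.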

How the data were processed

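The deposited values are log2 expression values that the authors obtained with RMA as core-exon analysis in the Affymetrix Expression Console software, per the labels. Software versions and the build were not stated. There were 72688 probe sets including 6732 controls. Platform annotation gave 31275 probe sets 1 gene, 1475 several and 33206 none. Symbols were updated through gene identifiers of a RefSeq table (GRCm38.p6), used for names and gene order only, which matched 31023. Each of 30675 genes was represented by its probe set with the highest mean.

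Groups and replicate numbers came from the titles. KO minus WT was fitted with limma 3.58.1 in R 4.3.3 (lmFit, eBayes) with the array set as a block. The differences within sets and between them came from 4 group-by-set means. P-values were adjusted by Benjamini-Hochberg over all genes, with a threshold of 0.05, after a check on simulated data. A gene within 0.1 of an array's highest value was taken as saturated, and background was the 95th percentile of 1078 olfactory receptor genes. From each pathway list the 4 genes with the smallest unadjusted p, in the comparison spoken of, could be named. Members, lists and tests were chosen with earlier results of these data known. Alternatives were 2 scalings, a filter on low values, a variance trend, averaged probe sets, no block, the replicate number as a block, each array left out and the second probe sets. Labels name separate mice without technical replicates. No probe-level files or sequences were used here.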

Additional observations from a re-analysis of the deposited data

Results flagged for a closer look

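Of 74 desaturase, Hilpda and pathway probe sets checked in both groups (148 groups of 4 arrays), 2 had 1 array far from the other 3 by Dixon's criterion. Each group spans both array sets, so the usual rate of about 1 in 20 groups by chance does not apply where a gene's values differ between the sets. WT replicate 3 was the lowest of its group for Elovl5, at 13.53, and KO replicate 3 the highest of its group for Dgat1, at 13.66. The desaturases that differ between the sets could not be judged in this way. The effect of the KO label on Insig1 differed between the array sets by -5.80 (limma adjusted p = 0.0366), with KO above WT on both arrays of set 1 and below WT on both arrays of set 2.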

How the results depend on the processing

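Under all alternatives 0 desaturases were called in any comparison (lowest limma adjusted p = 0.153 among single desaturase results). With no block and with the replicate block the fit over both sets called 0 genes and left the desaturase differences unchanged, since the arrays are balanced. Same-numbered arrays correlated at 0.11 and -0.09 once sets were taken out, so no pairing beyond the set is shown. Genes called over all genes numbered 0 to 1 over both sets with 1 array left out (1 without KO replicate 3), 0 to 14 in set 1 (14 without KO replicate 2, 1 without KO replicate 1) and 0 to 10 in set 2 (10 without KO replicate 3, 9 without WT replicate 4). Quantile normalization gave 0 in set 2. The difference between the sets called 82 genes after median centring, 313 with the filter, 4 with a variance trend and 0 to 10 with any array left out, and Insig1 lost its call with any array left out and with the trend (adjusted p = 0.0544 to 0.158). Signs of desaturase differences turned in 26 of 316 repeats, all of them uncalled. Many of the 316 could not turn a sign. The filter, the variance trend and the choice of block leave a difference as it is. Within 1 set, so does leaving out an array of the other set, and averaging does so for genes with 1 probe set. With quantile normalization the set difference of the second Scd1 probe set was -0.13, Scd3 in set 2 -0.039 and Fads1 in set 1 0.018. With median centring Scd3 in set 2 was -0.0067 and Fads1 over both sets -0.0066, and the second Fads2 probe set gave -0.023. With 1 array left out the ranges were -0.0803 to 0.10 for Fads1 over both sets (below 0 without KO replicate 1, KO replicate 4 or WT replicate 3), -0.24 to 0.13 in set 1, -0.12 to 0.29 in set 2 and -0.0726 to 0.34 between sets. They were -0.20 to 0.21 for Fads2 over both sets (below 0 without KO replicate 1, WT replicate 1 or WT replicate 2). Fads2 ranged from 0.03 to 0.87 in set 1 and from -0.54 to -0.16 in set 2. Fads3 ranged from -0.34 to -0.0024 over both sets, from -0.10 to 0.37 in set 1 and from -0.78 to -0.21 in set 2. The second Scd1 probe set ranged from -0.33 to -0.14 over both sets and from -0.17 to 0.29 between sets. For Scd3 in set 2 the values were -0.0294 to 0.0465. For Scd4 they were -0.18 to 0.001 in set 1, -0.0579 to 0.0333 in set 2 and -0.0133 to 0.17 between sets. The cause of these changes was not tested. Signal at the top of the scale limits Scd1, and signal near background limits Scd4.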
